A study of Arabidopsis thaliana with 7 samples.

Results

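Gene expression was measured with Affymetrix arrays in developing seeds of Arabidopsis thaliana, and the transcripts described here are the brightest ones whose signal moved little over the whole set of arrays. A probe set, the group of short probes that reads 1 transcript, was taken when its annotation named exactly 1 nuclear gene, its highest signal over the 7 arrays was below 1.5 times its lowest, and its mean signal in wild type was among the 200 highest of those that met this limit. Of 13367 probe sets naming 1 nuclear gene, 1842 met the limit (13.8%), and the 200 brightest of these are the members. They name 200 different genes, and their mean wild-type signal ran from 753 to 12259. The 5 genes that the rule leaves out by name did not meet the limit, so their removal changed nothing.

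The arrays held 3 samples of seeds from plants with the myb5-1 allele and 4 samples of wild-type (Col) seeds, 1 array per sample. Plants of both genotypes grew at the same time, on soil and under constant light, and the seeds were taken at globular to walking-stick embryo stages. MYB5 encodes a transcription factor of the MYB family with a known role in seed coat mucilage and tannins; it was not analysed here. The samples of a genotype are biological replicates per the design text, and myb5-1 is a single allele. All samples of both genotypes went through the same amplification, in which RNA was copied from its poly(A) tail and transcribed again before labelling. Whole seeds contain seed coat, endosperm and embryo, so fewer cells of a type and less RNA per cell cannot be told apart.

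Transcripts whose level changes little between samples serve as references in quantitative PCR and as anchors when arrays are scaled. Many such transcripts encode proteins that every living cell needs, among them enzymes of central metabolism, chaperones, translation factors, ubiquitin-conjugating enzymes and the tubulins of the cytoskeleton. In a developing seed the same enzymes also feed the synthesis of starch, oil and protein, and amounts of many other transcripts change as the embryo grows. Stability here means a small ratio within these 7 arrays only. The signals and the ratio chose the members, so the members' values are descriptions of the choice and no test of them is reported.

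The signals are linear intensities that had been scaled to one trimmed mean per array before deposit. Medians of all probe sets lay at 52.2 to 54.4 in the myb5 arrays and at 49.0 to 50.8 in the wild-type arrays. Over all probe sets, myb5 replicate 1 and wild-type replicates 1 and 2 stood apart from the other 4 arrays along the first principal component, which held 56.8% of the variance. Of 41 marker genes listed for seed tissues and for leaf, fruit wall and flower, 10 had a probe set naming them alone. The seed coat gene BAN, which encodes anthocyanidin reductase, read 3424, 6533 and 5881 in the myb5 arrays, against 2684, 2996, 6754 and 4681 in the wild-type arrays. The endosperm genes AGL62 and IKU2 and the meristem gene CLV3 read 0.262 to 17.8 over the 7 arrays, at the dim end of the scale. OLEO3, an oleosin gene of the maturing seed, read 4435, 1225 and 609.6 in the myb5 arrays, against 4699, 5364, 822 and 1469 in the wild-type arrays. PAP85, a vicilin-like storage protein gene, read 376 to 1979 in the 3 arrays that stood apart and 13.8 to 21.9 in the other 4. RCA, the rubisco activase gene of green tissue, was high in the same 3 arrays, at 473 to 573 against 145 to 249 in the others. ALC, the other measured gene of the leaf and fruit wall list, ran the other way, at 49.3 to 70.9 in those 3 arrays against 78.1 to 119.7 in the others. None of the 10 markers is a member, and the part of such tissue or stage differences in the members' values was not tested.

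The word abundant fits the members only as far as signal goes. Probe sets differ in how well they bind, so the signal of one gene is not set against that of another here. When the probe sets naming 1 nuclear gene were cut into 10 equal classes by wild-type signal, 34.2% of the brightest class met the limit, and all 200 members lie in this class. The share was 33.4% in class 9, 27.9% in class 8 and 13.2% in class 6, and it was 0.748% in the dimmest. The median ratio of highest over lowest signal was 1.66 in the brightest class and 2.34 over all 13367 probe sets. Meeting the limit was thus more frequent where the signal was high, and the part of signal strength in this was not tested.

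**Figure D1:**
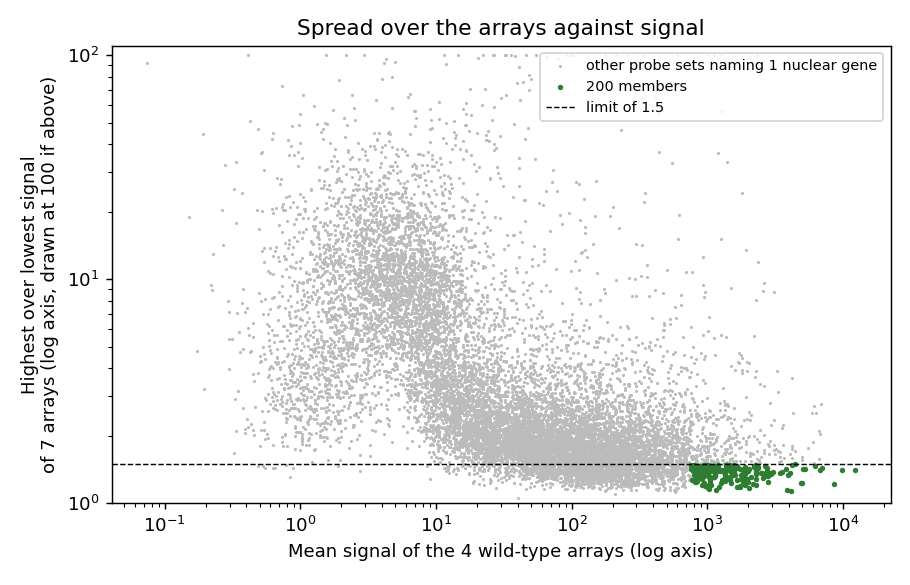
Ratio of the highest over the lowest signal of the 7 arrays (log axis) against the mean signal of the 4 wild-type arrays (log axis), 1 point per probe set naming 1 nuclear gene, with the 200 members in green and the limit of 1.5 as a dashed line. The members fill the corner of high signal and low ratio, from a wild-type mean of 753 upwards. Most dim probe sets lie above the limit, and single bright ones reach high ratios too.

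**Figure D2:**
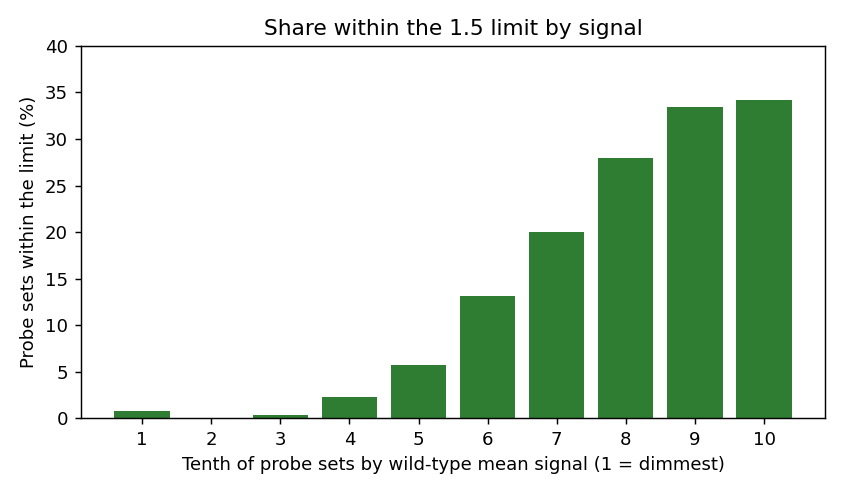
Percentage of the probe sets naming 1 nuclear gene that met the limit of 1.5, as bars, for each of 10 equal classes of these probe sets by mean wild-type signal, from dimmest to brightest. The share was 0.748% in the dimmest class and 34.2% in the brightest.

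At least as bright as the dimmest member were 518 probe sets, with the genes left out by name not counted, and 200 of them (38.6%) met the limit. The other 318 had a median ratio of 1.94, and 144 of them had a ratio of 2 or more. Among those outside, AT4G15750 read 5084, 10834 and 8533 in the myb5 arrays, against 4268, 3987, 11003 and 8154 in the wild-type arrays, with the low values in myb5 replicate 1 and wild-type replicates 1 and 2. DELTA-VPE, a vacuolar processing enzyme gene of the seed coat, read 5226, 8080.4 and 7693 in the myb5 arrays, against 4425, 5481, 8977 and 8287 in the wild-type arrays. It was low in the same 3 arrays. AT3G09200 also lay outside, with a ratio of 1.57, and so did AT5G38160 at 2.10 and AT1G04660 at 2.72.

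Within the limit the members still differed in how steady they were. Their ratio ran from 1.14 to 1.498, with a median of 1.37 and quartiles of 1.29 and 1.43. In 30 members it was below 5/4, and in 82 it was 1.4 or more. The SD of the log2 signal over the 7 arrays had a median of 0.17 among the members and of 0.36 among the 318 equally bright probe sets outside the limit. The coefficient of variation within a genotype had a median of 9.93% over the myb5 arrays and of 11.3% over the wild-type arrays. The brighter 100 members had a median ratio of 1.37 and the dimmer 100 one of 1.39.

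Of the 20 brightest members, 15 have a locus but no name in the annotation used here, which does not mean that they are uncharacterised. AT5G38170, the second brightest, is described with its neighbours further on. AT5G20290 read 6149.6, 7066 and 5451 in the myb5 arrays, against 5984, 7851, 6946 and 7135 in the wild-type arrays, with wild-type replicate 2 highest and myb5 replicate 3 lowest. AT3G60245 read 5247, 6669 and 6972 in the myb5 arrays, against 4754, 6924, 6895 and 6379.8 in the wild-type arrays. Its lowest arrays were wild-type replicate 1 and myb5 replicate 1. AT5G15200 read 4762, 4729 and 5277 in the myb5 arrays, against 4557, 6513, 5275 and 4595 in the wild-type arrays, and wild-type replicate 2 stood above all others. AT1G78040 was steadier, with a ratio of 1.23 and signals of 4660.5, 5384 and 5301 in the myb5 arrays, against 4511, 5099, 5557 and 4861 in the wild-type arrays. Its lowest arrays were wild-type replicate 1 and myb5 replicate 1, as for AT3G60245. AT5G59845 had a ratio of 1.24 and signals of 4195, 4431 and 5052 in the myb5 arrays, against 4681, 5192, 4883 and 4935 in the wild-type arrays, with its 2 lowest arrays in myb5.

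AT1G52300 read 4095, 4688 and 4715 in the myb5 arrays, against 3597, 4703, 5025 and 3384 in the wild-type arrays, and wild-type replicates 1 and 4 were its lowest arrays. AT1G67430 read 3332, 4288 and 3492 in the myb5 arrays, against 3949.9, 4565, 4038 and 3740.0 in the wild-type arrays, with its 2 lowest arrays in myb5. AT4G16720 read 3591, 3991 and 3738 in the myb5 arrays, against 3490.1, 4686, 4119 and 3539 in the wild-type arrays. Wild-type replicate 2 was its highest array, as it was for AT5G20290 and AT5G15200. AT1G77940 had signals of 3116 to 4436 over the 7 arrays, AT3G60770 of 2908 to 3983 and AT3G05560 of 2531 to 3476. AT2G34480 read 3069, 3253 and 3067 in the myb5 arrays, against 3254, 4217, 3352 and 3352 in the wild-type arrays, and all its myb5 arrays lay below its wild-type arrays, by less than 1 unit of signal between myb5 replicate 2 and wild-type replicate 1. In the other 19 the genotypes overlapped.

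The steadiest member was AT5G02870, which read 3845, 4058 and 4197 in the myb5 arrays, against 4027, 4375, 4363 and 3859 in the wild-type arrays. Its highest signal was 1.14 times its lowest. AT3G56460 had a ratio of 1.15, with signals of 1079 to 1243, and AT2G30620 one of 1.16, with signals of 956 to 1106. AT1G24510, at 1.17, read 1869 to 2181. The tables used here give these loci no name, and neither do they for 161 of the 200 members. At the other end AT3G24830 had a ratio of 1.498 and read 4413, 3941 and 3683 in the myb5 arrays, against 4080.0, 5517, 4140.5 and 3935 in the wild-type arrays. Wild-type replicate 2 lay above the other 6 arrays.

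Just inside the ratio limit were also UBC28 and AT5G47020, both at 1.49, AT2G21390 at 1.49 and AT2G04280 at 1.49. Just outside it among equally bright probe sets were AT1G72550 at 1.5004, BZIP53 at 1.51 and AT5G19440 at 1.51. By brightness, the last members inside were AT3G10770, AT5G05010 and AT3G56680, with wild-type means of 766, 757 and 753. The first outside were ALATS, AT1G61780 and AT3G58730, with 751, 749.6 and 749. Neither edge is a gap: the values run on through both thresholds.

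Redox genes hold the brightest member with a name. GILT, which encodes a gamma-interferon-responsive lysosomal thiol reductase, an enzyme type that reduces disulphide bonds, read 10563, 14609 and 11305 in the myb5 arrays, against 10331, 12047, 13699.9 and 12959 in the wild-type arrays. It was the brightest non-control probe set of every array, with the lowest signal in wild-type replicate 1 and the highest in myb5 replicate 2, and the genotypes overlapped. PRXR1, a gene of the class III peroxidases, which act with hydrogen peroxide in the cell wall, read 8629.9, 8509 and 8026 in the myb5 arrays, against 8510.5, 9185, 7509 and 9041 in the wild-type arrays. Its means were 8388 ± 319 in myb5 (SD, n = 3) and 8561 ± 759 in wild type (SD, n = 4), and the wild-type arrays spanned the myb5 ones. The thioredoxin m gene ATHM2, whose plastid product passes electrons to target enzymes, read 1854, 1362 and 1875 in the myb5 arrays, against 1407, 1357, 1836 and 1691 in the wild-type arrays, and both genotypes held high and low arrays. CYB-1 encodes a cytochrome b561, a membrane protein that moves electrons from ascorbate, and had signals of 836 to 1012. GLY2, a glyoxalase II gene of methylglyoxal removal, had 742 to 968. Over these 5 redox genes the ratio ran from 1.21 to 1.41.

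Central carbon and energy metabolism gave 12 of the 39 members that the tables name. TPI encodes cytosolic triosephosphate isomerase, which interconverts the triose phosphates of glycolysis, and read 4859, 4159.6 and 4076 in the myb5 arrays, against 5112, 5825, 4718 and 4486 in the wild-type arrays. Myb5 replicates 2 and 3 were its lowest arrays and wild-type replicate 2 its highest, while myb5 replicate 1 lay among the wild-type arrays. The cytosolic NADP-dependent isocitrate dehydrogenase gene cICDH, whose enzyme makes 2-oxoglutarate and NADPH, read 3515, 3754 and 3677 in the myb5 arrays, against 3630.4, 3675, 4048 and 3987 in the wild-type arrays. With a ratio of 1.15 it was the steadiest named member, and its means were 3649 ± 122 in myb5 (SD, n = 3) and 3835 ± 213 in wild type (SD, n = 4).

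ATP-citrate lyase makes cytosolic acetyl-CoA from citrate, a precursor of long fatty acids and flavonoids. Its A subunit genes ACLA-1 and ACLA-2 are both members. ACLA-1 read 2393, 3414 and 2706 in the myb5 arrays, against 2367, 2709.9, 2533 and 3392 in the wild-type arrays, with myb5 replicate 2 and wild-type replicate 4 on top. ACLA-2 read 859, 1033 and 1134 in the myb5 arrays, against 839, 806, 958 and 961 in the wild-type arrays, and its highest arrays were myb5 replicates 3 and 2. The third A gene, ACLA-3, met the limit at 1.43 but was dimmer than the members, and ACLB-1, for the B subunit, missed it at 1.74.

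MPPBETA, SDH2-1 and FRO1 encode mitochondrial proteins. MPPBETA encodes the beta subunit of the mitochondrial processing peptidase, which removes import signals, and read 1778, 1742 and 2448 in the myb5 arrays, against 1972, 2522, 2173 and 2173 in the wild-type arrays. Its 2 lowest arrays were both myb5, but the third myb5 array was its second highest. SDH2-1, for the iron-sulphur subunit of succinate dehydrogenase, read 956, 868 and 954 in the myb5 arrays, against 1000.3, 1137, 1018 and 938 in the wild-type arrays. FRO1, for a subunit of respiratory complex I, had signals of 650.3 to 934 and a ratio of 1.44. Other genes of metabolism were SBE2.2, a starch branching enzyme, at 724 to 994, and AIM1, a multifunctional enzyme of fatty acid beta-oxidation, at 718 to 894. SDRB, a short-chain dehydrogenase-reductase gene, had 963 to 1256. The aldehyde dehydrogenase genes ALDH6B2 and ALDH10A8 had ratios of 1.22 and 1.17. In all 12 genes the genotypes overlapped, and the log2 differences, myb5 minus wild type, ran from -0.17 to 0.20.

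Nitrogen metabolism was represented by SAMDC and ASPGA1. SAMDC encodes S-adenosylmethionine decarboxylase, which supplies the aminopropyl groups of the polyamines, and read 6679, 8211 and 7908 in the myb5 arrays, against 5809, 6831, 6927 and 7599 in the wild-type arrays. Its 2 highest arrays were myb5 replicates 2 and 3 and its lowest was wild-type replicate 1. ASPGA1, an asparaginase gene whose enzyme releases ammonium from asparagine, read 745, 788 and 777 in the myb5 arrays, against 874, 902, 862 and 711 in the wild-type arrays. Wild-type replicate 4 was its lowest array and the other 3 wild-type arrays its highest.

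For RNA and protein the tables name 9 members. EIF4A-2, an RNA helicase of translation initiation, read 1533, 1534 and 1518 in the myb5 arrays, against 1457, 1825, 1484 and 1253 in the wild-type arrays. The 3 myb5 arrays lay close together inside the wider range of the wild-type arrays. Y14, a core protein of the exon junction complex on spliced mRNA, read 869, 848 and 826 in the myb5 arrays, against 865, 902, 959 and 1021 in the wild-type arrays. Only wild-type replicate 1 kept the genotypes from separating in Y14. RBP45B, an RNA-binding protein gene, had signals of 643 to 896, and Hsp70-2, a chaperone gene of the HSP70 family, had 1863 to 2602. CKA4, a catalytic subunit gene of protein kinase CK2, had 1151 to 1466.

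The ubiquitin-conjugating enzymes, which carry activated ubiquitin to target proteins, gave UBC28 and UBC30. UBC28 read 945, 953 and 937 in the myb5 arrays, against 641, 818, 915 and 796 in the wild-type arrays. Every myb5 array was above every wild-type array in these deposited signals, by a small step over wild-type replicate 3. After quantile normalization, myb5 minus wild type was 0.29 (log2, standard error 0.14). UBC30 read 1246, 1099 and 1015 in the myb5 arrays, against 1424, 1024, 1029.7 and 1052 in the wild-type arrays. Wild-type replicate 1 was its highest array and the other 3 wild-type arrays lay within a narrow range. ATG8F, an ubiquitin-like protein of autophagosome membranes, read 1516, 1576 and 1537 in the myb5 arrays, against 1585, 1346, 1795 and 1634 in the wild-type arrays. Its family had 9 measured genes with a median ratio of 1.55, and 3 met the limit.

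BZIP60 encodes a transcription factor of the unfolded protein response of the endoplasmic reticulum. It read 927, 862 and 1040.0 in the myb5 arrays, against 776, 804, 787 and 829 in the wild-type arrays. All myb5 arrays were above all wild-type arrays, its means were 943 ± 90.2 in myb5 (SD, n = 3) and 799 ± 22.9 in wild type (SD, n = 4), and myb5 minus wild type was 0.26 (log2, standard error 0.11). In the deposited signals the choice of members keeps any pair of arrays within 0.58 of each other on the log2 scale. The differences given here are after quantile normalization, where 183 of the 200 members still met the limit.

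The cytoskeleton and the membrane system gave 8 named members. TUB6 and TUB9 encode beta-tubulins, subunits of microtubules. TUB6 read 728, 747 and 625 in the myb5 arrays, against 917, 753, 755 and 915 in the wild-type arrays, so that its myb5 arrays all lay below its wild-type arrays, the nearest pair being myb5 replicate 2 and wild-type replicate 2. On the log2 scale, after quantile normalization, myb5 minus wild type was -0.22 (standard error 0.13). TUB9 read 1072, 849 and 1005 in the myb5 arrays, against 1103, 1233, 947 and 1068 in the wild-type arrays, with an overlap of the genotypes and a log2 difference of -0.12. Of 5 beta-tubulin genes measured alone, 4 met the limit, with ratios of 1.45 in TUB9, 1.45 in TUB1, 1.47 in TUB6 and 1.48 in TUB5, and TUB7 missed it at 1.63.

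SPR1, a small protein that binds microtubules and acts in directional cell growth, read 837, 835 and 794 in the myb5 arrays, against 1109, 775, 1018 and 865 in the wild-type arrays. Both its highest and its lowest array were wild type. WLIM2b, a LIM protein gene whose family bundles actin filaments, had signals of 650.5 to 916. ECHIDNA, for a protein of the trans-Golgi network needed for secretion, had 1268 to 1637, and AP4M, the mu subunit of adaptor complex 4 of vesicle sorting, had 815 to 1127. AT4G02620, listed as VHA-F, a subunit of the proton pump of the vacuole, had 1197 to 1774. NPF4.1 belongs to the NRT1/PTR family of transporters and read 1738, 1309.7 and 1529 in the myb5 arrays, against 1518, 1349.8, 1398 and 1658 in the wild-type arrays. Its highest and lowest arrays were both myb5. Of 5 NPF4 genes measured alone it was the one that met the limit, and the others had ratios of up to 27.6. Those other probe sets were dimmer, with wild-type means of 7.42 to 150, and the part of signal strength in this was not tested.

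The remaining named members were BGLU15, a beta-glucosidase gene, LEA26, listed as late embryogenesis abundant 26, and UP3. BGLU15 read 1125, 904 and 888 in the myb5 arrays, against 1039, 992, 1004 and 1123 in the wild-type arrays. Of 22 BGLU genes measured alone, 2 met the limit, and the median ratio was 3.94. Many of these probe sets were dim, and high ratios were common at low signals. The part of signal strength in the contrast with BGLU15 was not tested. LEA26 read 755, 1082 and 736 in the myb5 arrays, against 1065, 906, 881 and 829 in the wild-type arrays. Its highest array was myb5 replicate 2 and its lowest myb5 replicate 3. UP3 had signals of 691 to 872.

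**Figure D3:**
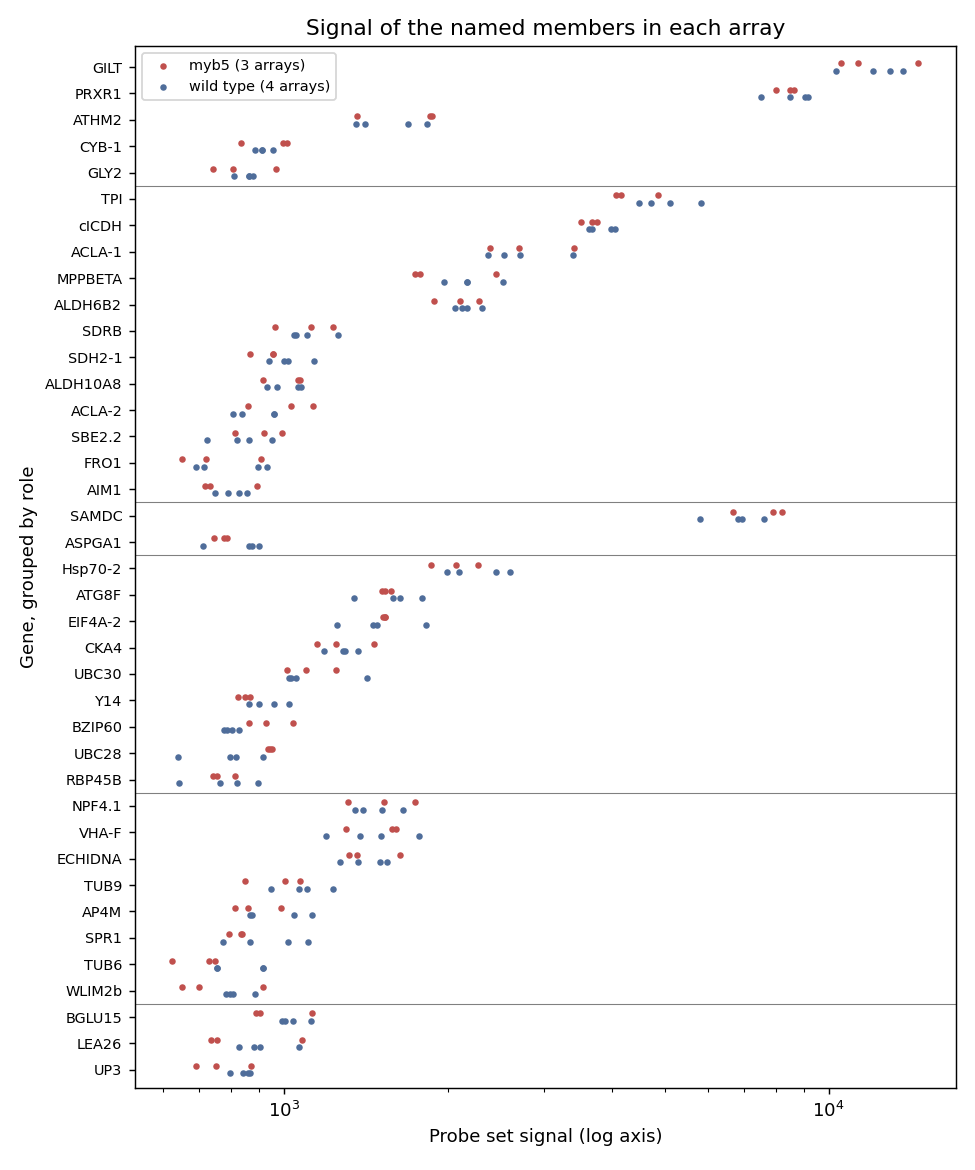
Signal (log axis) of the 39 named members in every array, grouped by role from top to bottom as redox, carbon and energy, nitrogen, RNA and protein, cytoskeleton and membranes, and others, with myb5 arrays in red above wild-type arrays in blue. The points of each gene span less than 1.5-fold, and the genotypes separate in UBC28, BZIP60 and TUB6.

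A further probe set naming the same gene alone was present for 2 members. Both of these probe sets were among the 13367 and missed the choice. For SDRB it read 602, 589.6 and 533 in the myb5 arrays, against 557, 567, 601 and 583 in the wild-type arrays, with a ratio of 1.13, and the genotypes overlapped as in the member. It met the limit but was not bright enough, with a wild-type mean of 577. For SDH2-1 it read 6.51, 2.67 and 3.30 in the myb5 arrays, against 8.47, 2.38, 3.86 and 1.12 in the wild-type arrays. This second SDH2-1 probe set was dim in every array and its ratio was 7.56. At such low signals high ratios were common, with medians of 6.47 to 9.61 in the 3 dimmest of the 10 classes, so it gives no second reading of the gene.

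Along the chromosomes, 3 pairs of members were next to each other in the order of protein-coding genes of the TAIR10.1 gene table. AT5G38170 and AT5G38180 form one, next to the bright AT5G38160. AT5G38170 read 9036, 10001 and 7613 in the myb5 arrays, against 8577, 10749, 10139 and 9808 in the wild-type arrays, and AT5G38180 read 1577, 1664 and 1496 in the myb5 arrays, against 1813, 1433, 1910.0 and 1857 in the wild-type arrays. AT5G38160, which lies outside the limit, read 8082, 6577 and 3840.4 in the myb5 arrays, against 7364, 6139, 5496 and 7373 in the wild-type arrays. The largest departure in AT5G38160 was the low signal in myb5 replicate 3, an array that was also the lowest for AT5G38170. The second pair was AT2G27710, at 1484 to 1779, and AT2G27720, at 1786 to 2220.1. The third was AT3G02080, at 1957 to 2662, and MPPBETA. Neighbours can share sequence as well as position, and no sequences were used here. Among the 318 equally bright probe sets outside the limit, 3 such pairs were found too.

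Genes in common use as references for quantitative PCR were listed as 30 loci, of which 10 had a probe set naming them alone. None of the 10 is a member. AT4G34270 met the limit at 1.19, AT5G46630 at 1.29 and AT2G28390 at 1.47, each with a wild-type mean below that of the dimmest member. AT5G46630 came close, with a wild-type mean of 739. GAPC2, which encodes a cytosolic glyceraldehyde-3-phosphate dehydrogenase, was bright but missed the limit at 1.66. It read 4710.0, 3886 and 2973 in the myb5 arrays, against 4128, 4924, 3642 and 3473 in the wild-type arrays, with myb5 replicate 3 lowest. AT4G33380 had the highest ratio of the 10, at 3.91, and read 279, 109 and 106 in the myb5 arrays, against 415, 163, 112 and 159.5 in the wild-type arrays. Its 2 high arrays were myb5 replicate 1 and wild-type replicate 1.

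Summed over the members, the signal was 340955, 355780.0 and 349764 in myb5 replicates 1 to 3, against 339870.0, 381044, 369779 and 356341 in wild-type replicates 1 to 4. These sums made up 7.35% to 7.61% of all signal in the myb5 arrays and 7.40% to 7.93% in the wild-type arrays. Small shifts of whole arrays were therefore left among the members. The median log2 deviation of a member from its own mean was -0.066, -0.034 and -0.021 in myb5 replicates 1 to 3, against -0.050, 0.075, 0.057 and 0.015 in wild-type replicates 1 to 4. Wild-type replicate 2 held the highest signal of 63 members, and wild-type replicate 1 held the lowest of 47. Myb5 replicate 3 held the lowest of 42. The equally bright probe sets outside the limit had median deviations of -0.034, -0.036 and -0.064 in myb5 replicates 1 to 3, against -0.028, 0.096, 0.077 and 0.014 in the wild-type replicates. The medians had the same sign in each array in both sets.

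**Figure D4:**
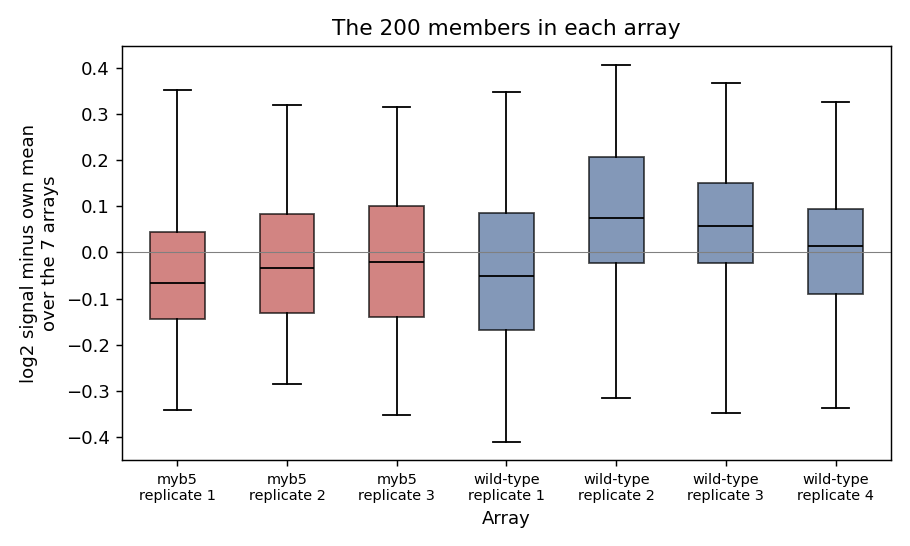
Log2 signal of the 200 members in each array, minus each member's own mean over the 7 arrays, as boxes with the median and quartiles and whiskers to the lowest and highest member, myb5 in red and wild type in blue. The medians lie between -0.066 in myb5 replicate 1 and 0.075 in wild-type replicate 2.

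Part of the variation that the limit allowed ran along the same split of arrays as in the whole series. Each array's mean over the probe sets was taken off first, so the shifts of whole arrays given above are left out here. The first principal component of the members held 34.7% of their variance. Myb5 replicate 1 and wild-type replicates 1 and 2 lay on one side of it, at root-mean-square log2 displacements of 0.080, 0.12 and 0.085. Myb5 replicates 2 and 3 and wild-type replicates 3 and 4 lay on the other side, at -0.061, -0.11, -0.069 and -0.040. In the 318 equally bright probe sets outside the limit the first component held 78.9% of the variance and the displacements reached 0.68. The members thus carried the split at a smaller amplitude, which the limit itself enforces. Applied to myb5 replicates 2 and 3 and wild-type replicates 3 and 4 alone, the limit was met by 4978 probe sets, and 100 of the members remained among the 200 brightest. Applied to the other 3 arrays alone it was met by 6681 probe sets, and 96 of the members remained. These sets of arrays were chosen after seeing the data. Fewer arrays meet a limit more easily whichever are kept, so nothing about the split is read from these counts. Every member meets the limit on any subset of arrays, so those that dropped out were displaced by brighter probe sets.

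Between the genotypes, the log2 differences of the members, myb5 minus wild type after quantile normalization, ran from -0.22 to 0.31 with a median of -0.010. They were above 0 in 92 members and below 0 in 108, with GILT among the 92 only through rounding. Within 0.1 of 0 lay 127 members (63.5%), against 41.2% of all 22746 probe sets. The 318 equally bright probe sets outside the limit had a median of -0.034, with quartiles of -0.23 and 0.16, against quartiles of -0.089 and 0.063 in the members. Their SD across genes was 0.39, against an SD of 0.10 in the members. The lowest of the 318 differences was -4.65 and the highest 0.99, and the low extreme widens their SD. GILT carries no information here, because quantile normalization gives the brightest probe set of every array the same value. Over all probe sets limma called 1 at an adjusted p of 0.05 (0.00440%), a probe set that is unnamed here and thus no member, and 788 had an unadjusted limma p under 0.05 (3.46%). Since the members were chosen on the same arrays, nothing is read from the narrower spread of their differences.

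**Figure D5:**
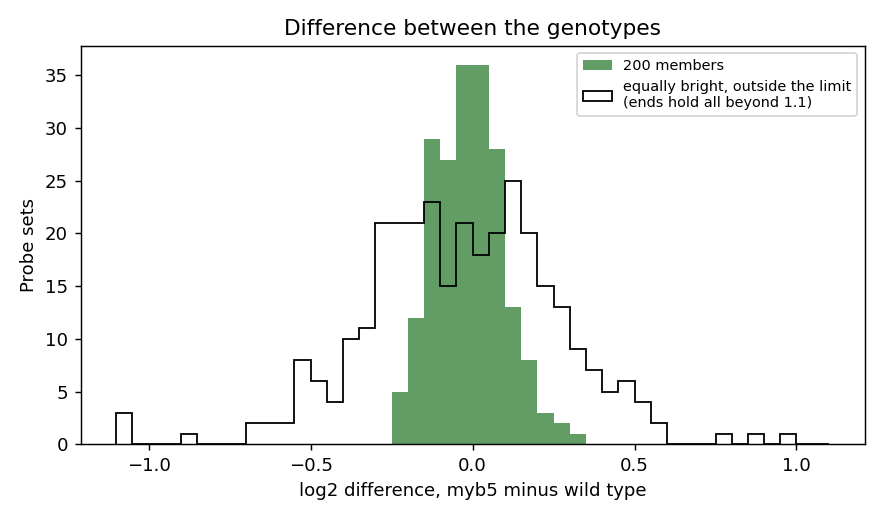
Number of probe sets by log2 difference between the genotypes, myb5 minus wild type, for the 200 members in green and for the 318 equally bright probe sets outside the limit as a black outline. The members lie between -0.22 and 0.31, and the outline is wider on both sides, its end bins holding all values beyond the axis.

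Without overlap between the genotypes were 13 members in the deposited signals. In 3 of the 200 members every myb5 array was higher, against 754 of all 22746 probe sets (3.31%). In 10 of the 200 every myb5 array was lower, against 356 of 22746 (1.57%). After quantile normalization 2 of the 200 members were higher, against 497 of 22746 probe sets (2.18%). Lower were 4 of the 200, against 493 of 22746 (2.17%), so the share of lower ones depended on the scaling. Which members these were is not given here, and the separations named in the text are those of the deposited signals. Since the limit was applied to the same arrays, nothing is read from these counts. The third member with higher myb5 signals beside UBC28 and BZIP60 was AT5G17190, which read 1784, 1836 and 1926 in the myb5 arrays, against 1319, 1511, 1634 and 1777 in the wild-type arrays. Its log2 difference of 0.31 was the highest among the members, and the step between the genotypes was narrow, at myb5 replicate 1 and wild-type replicate 4. Among those with lower signals, AT4G32390 read 895, 911 and 913 in the myb5 arrays, against 1048, 1078, 1015 and 1002 in the wild-type arrays. Its arrays were tight within each genotype, with means of 906 ± 9.92 in myb5 (SD, n = 3) and 1036 ± 34.1 in wild type (SD, n = 4). AT5G26710 read 1379, 1303 and 1260.0 in the myb5 arrays, against 1492, 1559, 1457 and 1427 in the wild-type arrays. The others with all myb5 arrays lower were AT2G34480, AT1G07080, AT3G53430, AT4G32870, AT3G12050, AT3G08930, AT1G20950 and TUB6, with log2 differences from -0.22 to -0.073. These loci were picked for their lack of overlap after their values were seen.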

How the data were processed

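Seed RNA of 3 myb5 and 4 wild-type samples had been hybridized to 1 array each. The values are the authors' deposited linear intensities, 1 per probe set and array. From the values, each array had been scaled to one trimmed mean; which software made them: not given in the sources used here. Without 64 control probe sets, 22746 remained. Gene names came from the array's annotation table, brought up to date through a RefSeq gene table (assembly TAIR10.1): 13513 probe sets name 1 gene, 503 several, and 8730 are unnamed here. Of those naming 1 gene, 77 were not in the gene table and 69 belong to organelles, which left 13367.

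The limit and the ranking were applied to the deposited signals. Differences come from limma (version 3.58.1, R 4.3.3), as lmFit and eBayes on quantile-normalized log2(intensity + 16) with genotype as the only term, Benjamini-Hochberg adjusted over all 22746 probe sets. The fit was also run on simulated data with the same noise for every probe set and no split of arrays. The real arrays differ in both, so nothing about them is read from that run. No detection call was used, and the number of arrays limits the precision.

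The members, the lists and the comparisons were chosen with earlier results of these data known. Named in the text are the brightest members, those at both thresholds, the steadiest and least steady, the brightest probe sets that miss the limit, listed reference genes and members with a further probe set. Loci given without a role have no name in the tables. The other members named by the tables, their role groups, families and neighbours were picked after values were seen. Classes by the words of the gene table were counted, but it names no ribosomal protein gene among the 13367, so that class is empty for lack of names. The tally of one family is not reported here. The planned scan of promoters was not run, since no sequences were used here. Alternatives were another limit, scaling, ranking, pseudocount, a filter on dim probe sets, the replicate number as a block, and leaving out each array.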

Additional observations from a re-analysis of the deposited data

Results flagged for a closer look

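A search covered 86 probe sets, among them the named members, those at the thresholds and the measured reference genes. Marker genes, some neighbours and family genes, and most loci picked for a lack of overlap were not searched, though the text names them. In each of the 86, 1 wild-type array far from the other 3 was sought, by the gap to the nearest array over the whole range. There were 5 such cases; chance gives about 1 in 20 groups, and some of these probe sets had been picked by their values. UBC30 had a signal of 1424 in wild-type replicate 1, where the others of its genotype had 1024 to 1052. AT4G33380, a listed reference gene, had 415 in wild-type replicate 1, against 112 to 163. Wild-type replicate 2 was the far array in the other cases. AT3G24830 had 5517 there, against 3935 to 4140.5 elsewhere in wild type, and AT2G34480 had 4217, against 3254 to 3352. AT1G61780, just below the dimmest member, had 615, against 775 to 808.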

How the results depend on the processing

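The choice of members depended most on the limit. With a limit of 5/4, 207 probe sets met it and 30 members remained among the 200 brightest; with a limit of 2, 5302 met it and 113 remained. Dividing each array by its median kept 158 members, quantile normalization 176, and ranking by all 7 arrays or by myb5 198 and 196. Leaving out each array in turn kept 166 (without wild-type replicate 2) to 190 members, with 2142 to 2508 probe sets within the limit. Chosen after seeing the data, myb5 replicates 2 and 3 with wild-type replicates 3 and 4 alone gave 4978 probe sets and 100 members kept, and the other 3 arrays alone gave 6681 and 96; fewer arrays meet a limit more easily. The median genotype difference of the members was -0.010. It was -0.052 in the signals as deposited and -0.14 with each array divided by its median, while it ran from -0.033 to 0.0093 over leaving out each array, -0.012 with the replicate block, and -0.019 and -0.036 within the 2 sets of arrays. It changed sign with single arrays left out, so no direction is given. Members without overlap between the genotypes were 13 in the deposited signals and 6 after quantile normalization. Over all probe sets limma called 1, and 1 to 2 leaving out each array, the 2 without myb5 replicate 1. It called 0 with the replicate number as a block and 0 in myb5 replicates 2 and 3 with wild-type replicates 3 and 4 alone, with fewer residual degrees of freedom in both and 1362 and 1031 probe sets at an unadjusted limma p under 0.05. Deviations of same-numbered replicates correlated at 0.63, -0.30 and 0.55 over probe sets, so the numbers were not taken to pair the samples. The other settings for this count gave 1. The alternatives for ribosomal protein genes had no named gene to count, and promoter motifs were not run. Signals near background have no stated limit of detection, which does not touch the bright members.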

Other observations

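Spike-in controls, which are added to every array in fixed amounts at hybridization, had wider ratios than the members. Of 18 such control probe sets (bioB, bioC, bioD and cre), 1 met the limit of 1.5, and their ratios ran from 1.22 to 1.98 with a median of 1.63. The 7 of them at least as bright as the dimmest member had ratios of 1.22 to 1.85. The members were picked for low ratios and the controls were not, so the sets are given side by side only.

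By the words in the gene table, which names few genes, 2 of 13 probe sets with tubulin, actin or profilin were members, and so were 2 of 33 with thioredoxin, peroxiredoxin, peroxidase, catalase or glutathione. None of 17 with aquaporin, ATPase, porin or transporter was a member, while 4 of them were equally bright outside the limit. None of 7 with histone and none of 6 with heat shock or chaperone was a member. The words miss genes listed under other names, among them the members Hsp70-2, VHA-F and NPF4.1. These counts therefore do not show that a class is absent from the members.

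Members were found on every chromosome. Chromosome 5 held 26% of the members and 22.5% of all probe sets naming 1 nuclear gene, chromosome 1 held 24% and 25.8%, and chromosome 2 held 13.5% and 16.5%. A gene symbol other than the locus was given to 16% of the members, to 23.3% of the equally bright probe sets outside the limit, and to 11.1% of all. Among the gene families tallied here, beta-tubulin and ATP-citrate lyase had most of their measured genes within the limit, with 4 of 5 and 3 of 4, and so did the WLIM genes with 2 of 3. The succinate dehydrogenase genes had 2 of 5 probe sets within it, the SPIRAL1 family 2 of 5, the V-type ATPase subunits 2 of 5, the aldehyde dehydrogenases 4 of 8 and glyoxalase II 1 of 4. A family was tallied because a named member belongs to it, so each has a gene within the limit by choice. The limit was met by 13.8% of all probe sets naming 1 nuclear gene and by 34.2% of the brightest of 10 classes. Nothing is read from these tallies.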
